A study of Homo sapiens with 6 samples.

Results

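The AP-1 transcription factor genes FOS, FOSB, FOSL1, FOSL2, JUN, JUNB, JUND and ATF3 were followed in HEK293 cells given sodium salicylate. They are 8 of the 20046 genes named on the array and were represented by every probe whose platform gene symbol was one of these names, 10 of 47323 probes: 3 for ATF3 and 1 for each other gene. HEK293 is an established human line of embryonic kidney origin, and salicylate is what the body makes from aspirin. Cells were untreated (0 min, the control) or received 50 mM sodium salicylate for 30 or 60 min, with 2 Illumina bead arrays of total RNA in each of the 3 groups. No group carried a transgene or a deletion by the labels, and none was labelled as a mock or another salt, so salicylate cannot be told apart from handling, time or the sodium salt. Whether both samples of a group were cultured apart is not in the labels. All p-values therefore rest on a spread between samples that may be purely technical.

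AP-1 is a family of dimers of basic leucine zipper proteins. FOS proteins do not pair stably with each other and bind DNA as partners of JUN proteins, whereas JUN proteins can also pair among themselves. ATF3, a relative induced by many stresses, can pair with itself or with JUN proteins. FOS, FOSB, JUN, JUNB and ATF3 are classic early response genes, whose transcripts are made within minutes of a stimulus and decay quickly, and their products carry signals of MAP kinases to target genes.

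After 60 min of salicylate the transcripts of FOS, FOSB, JUN, JUNB and JUND were lower than in untreated cells, and no member was higher. FOSB was lowest against its control level, at 1.98-fold below it, followed by FOS and JUNB (both 1.51-fold), JUND (1.34-fold) and JUN (1.26-fold). This order depends on the background correction: without it FOSB was still first, but JUND and JUN came before FOS and JUNB. At 30 min none of the 8 genes had passed the test. Between 30 and 60 min FOS, FOSB, JUND and ATF3 fell. FOSL1 and FOSL2 passed in no comparison. A gene is said to rise or fall here where its Benjamini-Hochberg adjusted p from limma, over 12547 genes with 1 probe each, was under 0.05. In bulk RNA, fewer cells that express a gene and less RNA per cell cannot be told apart.

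Of 10 transcripts listed as markers of HEK293 and like lines, 9 passed the detection filter and were detected in all 3 groups. The kidney factor gene PAX2 was detected on no array. Whether the listed genes are particular to this line was not tested. The summed normalized intensity of the 9 lay between 40500 and 42490 in controls, 41440 and 41870 at 30 min, and 42720 and 45070 at 60 min. NEFL and KRT8 of this list rose at 60 min against control by 0.33 and 0.26 on the log2 scale (adjusted p = 0.00814 and 0.00888) and against 30 min by 0.44 and 0.30 (adjusted p = 0.00218 and 0.00429). The calls against control were lost with median scaling, without the variance trend and without control replicate 2. Of 13 markers of blood, endothelial, fibroblast and liver cells, 12 had a probe and 6 passed the filter, and PTPRC, CD3E, HBB, PECAM1, VWF and CDH5 were detected on no array. The summed normalized intensity of the 6 that passed lay between 651.2 and 655.7 in controls, 725 and 774.3 at 30 min, and 620.7 and 677.8 at 60 min. LUM and APOA1 are in this sum, though both passed the filter only through the 60 min arrays. The groups are therefore not compared by it. CD14 was lower at 60 min against control (log2 difference -0.31, adjusted p = 0.0428, lost in 10 of 16 alternatives in processing) and against 30 min (-0.65, adjusted p = 0.0013). LUM was above background on the 60 min arrays alone, at least 1.52-fold above control, and passed the filter only through that group, so its test is not read. The part of these in the results below was not tested. Between 20726 and 21740 probes were detected per array (detection p under 0.05), and values of any pair of arrays correlated across genes at between 0.991 and 0.997.

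All 8 genes had a probe above background on all 6 arrays, so none entered the test through 1 group alone. The other probes of ATF3, ILMN_1661109 and ILMN_1791346, were detected on 0 of 6 arrays, with deposited intensities between 97.4 and 117, and were not tested. Detection began at a deposited intensity of 153 to 156.9, depending on the array. Probes of FOS (198 to 334), FOSB (197 to 318), FOSL1 (192 to 215), FOSL2 (170 to 198) and JUNB (167 to 206) lay close above this limit, and those of JUN (1822 to 3032), JUND (14078 to 20837) and ATF3 (1614 to 2270) far above it. A probe's brightness also reflects its own sequence, so the levels of different genes are not ranked here. For the dim probes the size of a difference depends on the background correction, as given below.

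**Figure D1:**
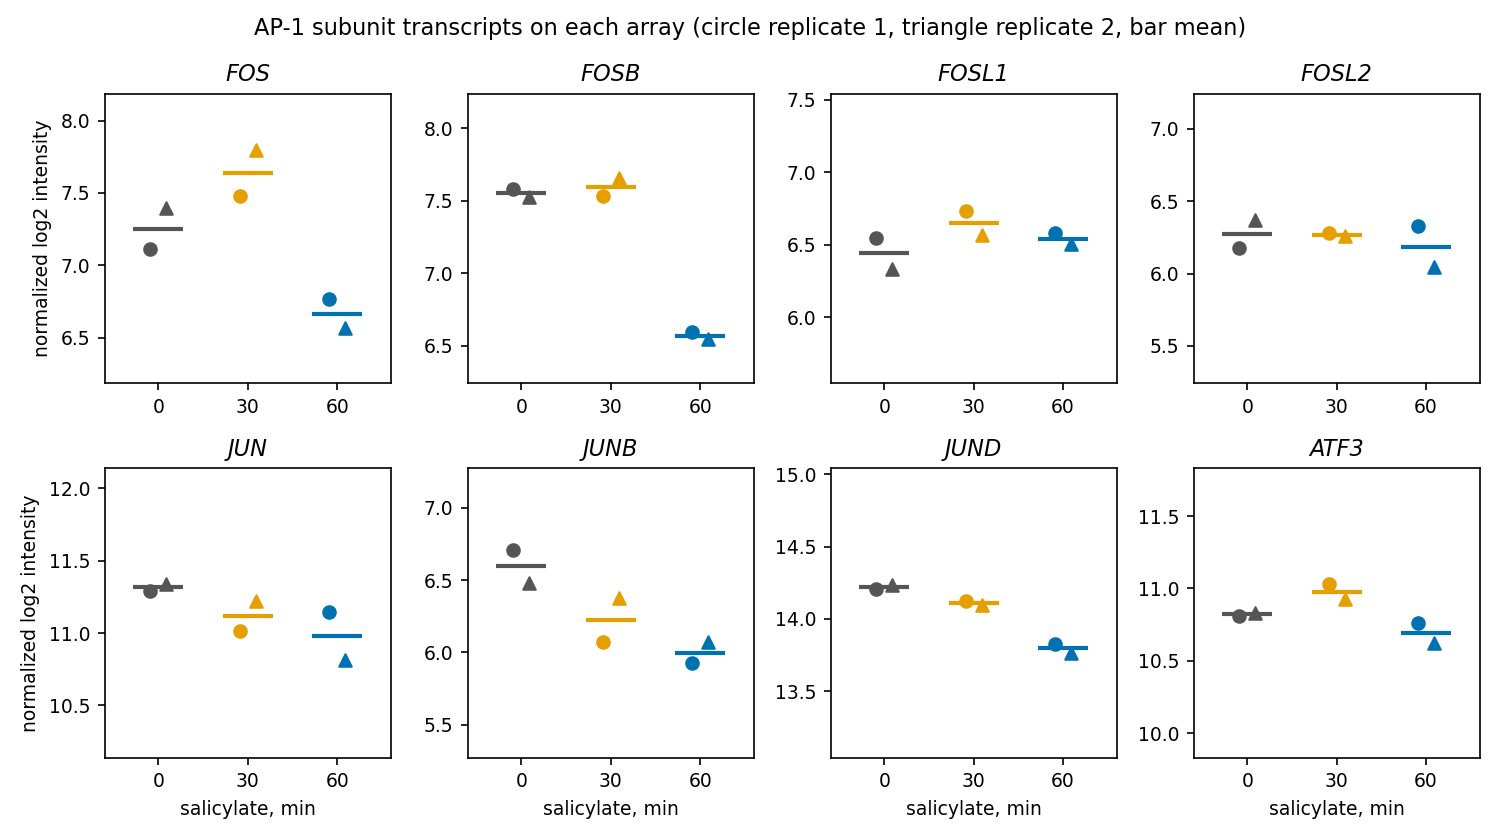
Normalized log2 intensity of the tested probe of each AP-1 gene on the 6 arrays, against minutes of salicylate (0 is the control). Circles are replicate 1, triangles replicate 2 and bars group means, and every panel spans 2 log2 units. Both 60 min arrays of FOSB, at 6.59 and 6.55, lie below all 4 other arrays.

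The bases just before the start of each gene are shown to describe the motifs they hold. FOS and FOSB share the layout of a TGACGT sequence followed by a TATAAA sequence there, while JUN holds a different element of the same kind. JUN, JUNB and JUND fell without this layout, and a link between motifs and changes was not tested. TGACGT is the core of the element bound by CREB and ATF proteins, TGACATCA is a relative of it that JUN and ATF2 dimers are known to bind in the JUN promoter, and TATAAA is the core of the TATA box. The stretches run 5′ to 3′ on the gene's strand from position -130 to -1, where -1 is the last base before the RefSeq gene start (GRCh38.p14), and capitals mark these 3 motifs found on either strand. A window was given for 7 of the 8 genes, FOSL1 being the exception. The stretches lie at chr14:75278698-75278827 (plus strand) for FOS, chr19:45467866-45467995 (plus) for FOSB, chr2:28392728-28392857 (plus) for FOSL2, chr1:58784048-58784177 (minus) for JUN, chr19:12791356-12791485 (plus) for JUNB, chr19:18281623-18281752 (minus) for JUND and chr1:212565277-212565406 (plus) for ATF3.
FOS: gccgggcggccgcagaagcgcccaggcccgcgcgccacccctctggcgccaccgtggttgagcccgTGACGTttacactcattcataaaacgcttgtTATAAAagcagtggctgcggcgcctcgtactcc
FOSB: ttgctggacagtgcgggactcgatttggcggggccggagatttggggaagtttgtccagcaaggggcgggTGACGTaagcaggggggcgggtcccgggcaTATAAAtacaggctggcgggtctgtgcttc
FOSL2: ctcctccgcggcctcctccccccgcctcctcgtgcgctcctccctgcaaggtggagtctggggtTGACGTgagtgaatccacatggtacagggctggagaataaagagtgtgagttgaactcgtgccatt
JUN: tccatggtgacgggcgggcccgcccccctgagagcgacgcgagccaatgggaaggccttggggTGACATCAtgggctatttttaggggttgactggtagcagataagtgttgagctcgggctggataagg
JUNB: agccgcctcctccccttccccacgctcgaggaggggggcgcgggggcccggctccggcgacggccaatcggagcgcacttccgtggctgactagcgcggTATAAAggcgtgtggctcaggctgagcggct
JUND: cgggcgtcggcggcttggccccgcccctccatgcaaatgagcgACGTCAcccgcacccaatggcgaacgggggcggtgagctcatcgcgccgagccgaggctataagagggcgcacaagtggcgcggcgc
ATF3: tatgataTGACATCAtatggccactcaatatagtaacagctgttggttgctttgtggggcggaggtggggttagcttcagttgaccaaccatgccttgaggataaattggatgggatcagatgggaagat

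In FOS the TGACGT begins at -64 and the TATAAA at -33, and in FOSB they begin at -60 and -30. FOSL2, which did not pass the test, has a TGACGT at -66 and no TATAAA, and JUNB, which fell, has a TATAAA at -31 and no TGACGT. JUND has the TGACGT on the opposite strand at -87, and further out, at -200, the full palindrome TGACGTCA, which reads as a TGACGT on each strand. TGACATCA begins at -67 in JUN and at -123 in ATF3. Over the whole window, from 250 bases before to 50 after the start, TGACGT was found in 4 of the 7 members against 7.98% of all 35116 windows given. TATAAA was found in 3 of 7 against 11.5%, TGACATCA in 2 against 2.61% and TGACGTCA in 1 against 1.85%. The AP-1 site TGAGTCA was found in FOSL2 alone, at position 5, against 4.95% of all windows. The CArG box, the site of SRF, was found in none against 1.29%. Bases outside the window were not searched, so a CArG box farther from a start would have been missed. All searches covered both strands, and a match is a description of the letters, not of a bound site. A second window was given for ATF3, at another start within the gene, and held none of these motifs but TATAAA, at -230. Which start of ATF3 was in use in these cells was not tested.

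FOS, the founding member of its family, had normalized log2 intensities of 7.11 and 7.39 in controls, 7.48 and 7.80 at 30 min, and 6.76 and 6.56 at 60 min. Both 30 min arrays were above both controls and both 60 min arrays were below them. At 30 min the difference from control was 0.39 ± 0.15 (log2, SE of the fit, n = 2 arrays per group), with a 95% interval of 0.05 to 0.72 and an adjusted p of 0.374. FOS fell against control at 60 min by 0.59 ± 0.15 on the log2 scale (adjusted p = 0.0175). It fell by 0.98 ± 0.15 between 30 and 60 min (adjusted p = 0.00155), to a level 1.97-fold lower. The call against control was lost without control replicate 2 (adjusted p = 0.156), without 60 min replicate 2 (0.0754), with no detection filter (0.0594) and without the variance trend (0.058), in a range of 0.0035 to 0.156 over 16 alternatives. The fall from 30 to 60 min was called in all 16, with adjusted p between 5.92e-07 and 0.0229.

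FOSB, whose product resembles FOS and whose short form lacks part of the activation domain, stood at 7.58 and 7.53 in controls, 7.53 and 7.66 at 30 min, and 6.59 and 6.55 at 60 min. The 30 min arrays overlapped the controls (difference 0.04 ± 0.12, adjusted p = 0.934), and both 60 min arrays lay below every other array. FOSB fell by 0.99 ± 0.12 at 60 min against control (adjusted p = 0.000394) and by 1.03 ± 0.12 against 30 min (adjusted p = 0.00035). Both calls held in all 16 alternatives, with adjusted p of at most 0.00857 and 0.0117. At 30 min FOS was above its controls on both arrays and FOSB was not, and the difference between the genes was not tested.

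FOSL1 and FOSL2 encode FRA1 and FRA2, FOS relatives that lack a strong activation domain. FOSL1 stood at 6.55 and 6.33 in controls, 6.73 and 6.57 at 30 min, and 6.58 and 6.50 at 60 min. Its difference at 60 min was 0.10 ± 0.16 with an interval of -0.24 to 0.44 (adjusted p = 0.694). FOSL2 stood at 6.18 and 6.37, 6.28 and 6.26, and 6.33 and 6.04 in the same order, and its 3 groups overlapped. Its difference at 60 min was -0.09 ± 0.18 with an interval of -0.47 to 0.29 (adjusted p = 0.753). The intervals of both genes exclude a fall as large as that of FOSB, and the interval of FOSL2 reaches past the sizes of the JUN and JUND falls.

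JUN, the central partner of FOS proteins, stood at 11.29 and 11.34 in controls, 11.02 and 11.22 at 30 min, and 11.15 and 10.81 at 60 min. All 4 treated arrays were below both controls, and the 60 min arrays spread more widely than the others. The difference at 30 min was -0.20 ± 0.10 (adjusted p = 0.496). JUN fell by 0.33 ± 0.10 at 60 min against control (adjusted p = 0.03), and its difference between 30 and 60 min was -0.14 ± 0.10 (adjusted p = 0.348). The call rested on single arrays: it was lost without control replicate 1 (adjusted p = 0.109) or 2 (0.157), without 60 min replicate 2 (0.201, at a log2 difference of -0.17) and without the variance trend (0.144), in a range of 0.00153 to 0.201. Without 60 min replicate 1 the difference between 30 and 60 min was -0.31 and passed (adjusted p = 0.0256), and without 60 min replicate 2 it was 0.029.

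JUNB, a JUN relative that activates many promoters less strongly and can oppose JUN, stood at 6.70 and 6.48 in controls, 6.07 and 6.38 at 30 min, and 5.93 and 6.07 at 60 min. No array of 1 group overlapped another group, with controls highest and 60 min arrays lowest, although the 30 min replicate 1 and 60 min replicate 2 values were nearly equal. The difference at 30 min was -0.37 ± 0.18 (adjusted p = 0.481). JUNB fell by 0.59 ± 0.18 at 60 min (adjusted p = 0.0334). The call was lost without either control array (adjusted p = 0.199 without replicate 1 and 0.074 without replicate 2), without either 60 min array (0.108 and 0.0567) and with no detection filter (0.0668), in a range of 0.0292 to 0.199.

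JUND, the JUN family member that most cells make constantly and that is least tied to stimulation, had the brightest member probe, at 14.20 and 14.23 in controls, 14.12 and 14.09 at 30 min, and 13.83 and 13.77 at 60 min. The 3 groups were separate and the 2 arrays of each lay close together. The difference at 30 min was -0.11 ± 0.05 (interval -0.22 to -0.00094, adjusted p = 0.444). JUND fell by 0.42 ± 0.05 at 60 min against control (adjusted p = 0.000334) and by 0.31 ± 0.05 against 30 min (adjusted p = 0.00175). Both calls held in all 16 alternatives, with log2 differences between -0.45 and -0.38 and between -0.34 and -0.28.

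ATF3, which represses many of the promoters it binds alone, was measured by ILMN_2374865 at 10.81 and 10.83 in controls, 11.03 and 10.92 at 30 min, and 10.76 and 10.63 at 60 min. Both 30 min arrays were above the controls and both 60 min arrays below them. The difference from control was 0.15 ± 0.07 at 30 min (interval 0.01 to 0.30, adjusted p = 0.424) and -0.13 ± 0.07 at 60 min (interval -0.28 to 0.02, adjusted p = 0.201). ATF3 fell by 0.28 ± 0.07 between 30 and 60 min (adjusted p = 0.0122). This call was lost without 30 min replicate 1 (adjusted p = 0.108), without 60 min replicate 2 (0.0588) and without the variance trend (0.0692), in a range of 0.00767 to 0.108.

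**Figure D2:**
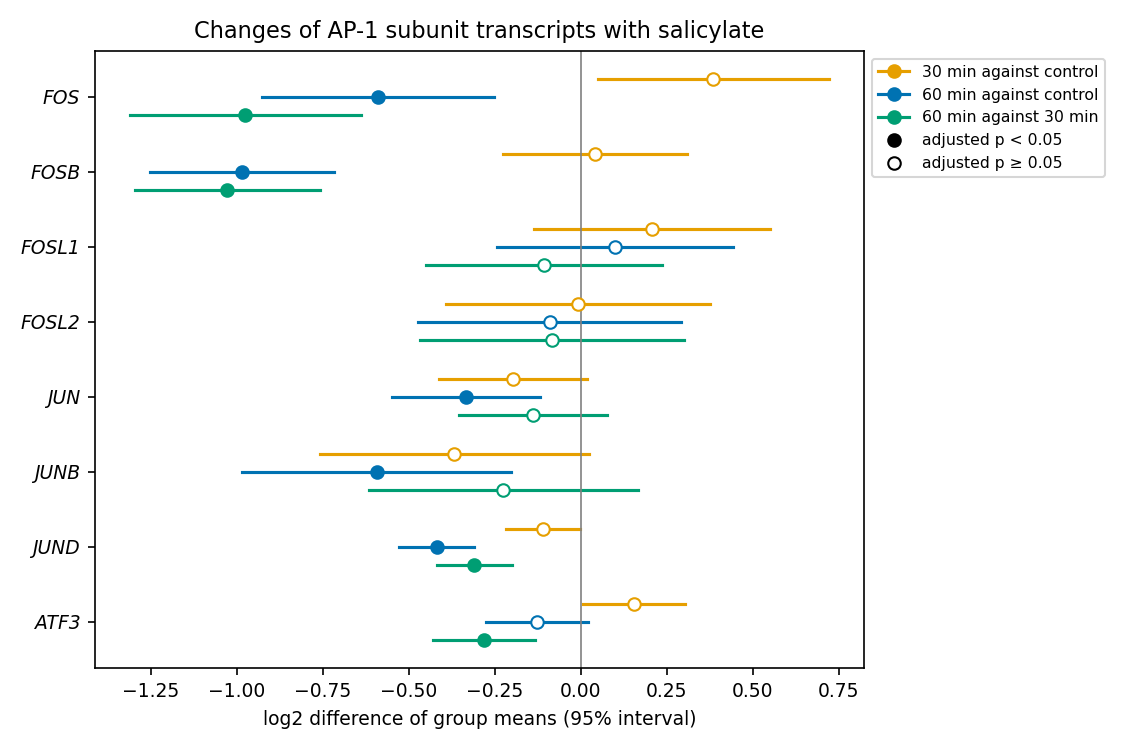
Log2 differences of group means with 95% intervals for each AP-1 gene in the 3 comparisons, filled where the adjusted p from limma was under 0.05. The 5 filled points for 60 min against control run from -0.99 for FOSB to -0.33 for JUN, and no point for 30 min against control is filled.

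Across the 8 genes 5 fell and 0 rose at 60 min against control, where 22.9% of the 12547 genes tested were called in either direction and 12.3% were called lower. The members' median difference was -0.377, beside -0.00818 over all genes. Between 30 and 60 min 4 fell and 0 rose, where 22.7% of all genes were called, with a median of -0.254 beside -0.00871. At 30 min against control 0 of 8 were called by limma, where 0.327% of all genes were, and the median was 0.017 beside -0.00415. FOS, JUND and ATF3 (3 genes) had an unadjusted limma p under 0.05 there. The share of all genes at that unadjusted threshold is not given. Counts at it, here and below, are therefore not read as an excess. The 60 min comparisons share arrays with each other and with the 30 min comparison, so their counts are not separate evidence. With every one of the 22377 detected probes as its own row, 5 of the 8 member probes fell at 60 min, 4 between 30 and 60 min and 0 at 30 min (2 at an unadjusted p under 0.05), where 16.3%, 15.5% and 0.232% of all probes were called.

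Groups that do not overlap were common with 2 arrays each. The arrays of 6 members did not overlap between 60 min and control, where 60.5% of all genes did not, and those of 5 did not between 30 and 60 min, where 60.3% did not. The arrays of 6 did not between 30 min and control, where 44.6% of all genes did not.

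The dim probes of FOS, FOSB and JUNB had smaller differences in intensities not corrected for background. At 60 min against control they were -0.32 for FOS, -0.55 for FOSB and -0.26 for JUNB, all still called (adjusted p = 0.0272, 0.000513 and 0.0435). The brighter probes of JUN and JUND were at -0.32 and -0.42 there, so JUND came second after FOSB, JUN and FOS were nearly equal, and JUNB came last. Without the correction the falls between 30 and 60 min were -0.56 for FOS and -0.57 for FOSB.

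**Figure D3:**
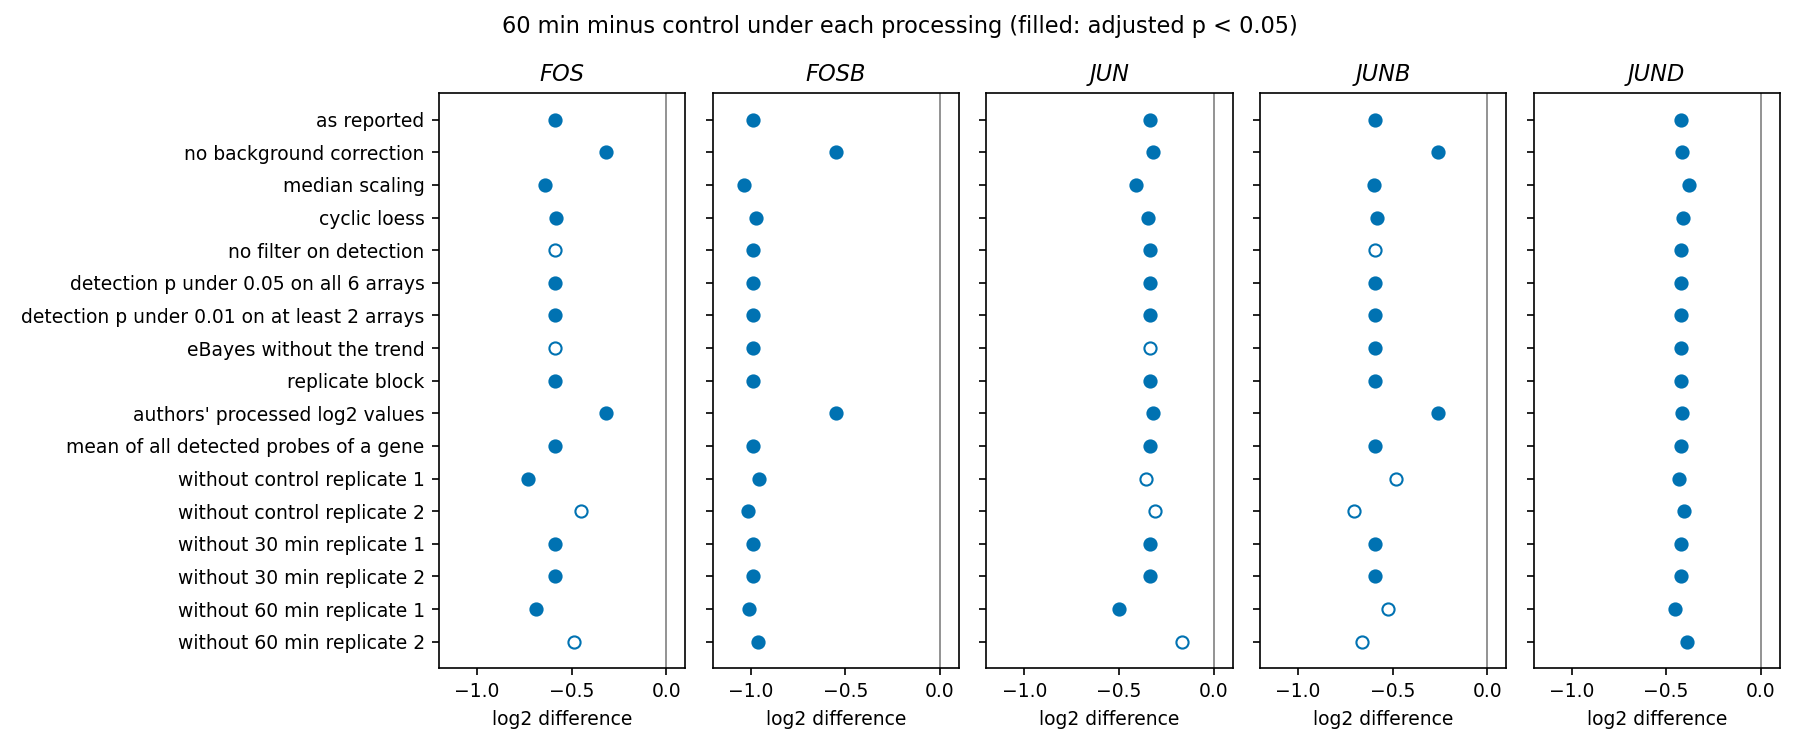
Log2 difference between 60 min and control for the 5 AP-1 genes that fell, under the reported processing and each of 16 alternatives, filled where the adjusted p was under 0.05. FOSB and JUND are filled in every line, and the points of FOS, FOSB and JUNB move toward 0, to -0.32, -0.55 and -0.26, without background correction.

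The 5 genes whose pattern over the 6 arrays was most like that of FOSB, the member with the largest difference at 60 min, were JADE2, FOXD4, FOXD4L1, TMEM127 and EN2. Likeness was the root mean square distance between log2 values, each gene set to its control mean, and was 0.058, 0.0663, 0.0893, 0.105 and 0.111 in this order. JADE2 encodes a PHD finger protein, FOXD4 and FOXD4L1 near-identical forkhead factors whose probes may share signal, TMEM127 a membrane protein and EN2 a homeobox factor. Their differences at 60 min were -1.03, -0.92, -0.89, -0.92 and -0.84, and those at 30 min lay between -0.0791 and 0.029. These genes were picked for likeness, so this is a description with no test. None of the other AP-1 genes was among them.

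Genes that act around AP-1 were read from 6 lists, of which the 1 most like the members was that of other immediate early genes. Of 11 EGR, NR4A and IER genes 6 were tested, and 3 fell and 1 rose at 60 min (median -0.349), where 22.9% of all genes were called, 12.3% lower, with a median of -0.00818. NR4A2, an orphan nuclear receptor, fell by 0.65 ± 0.14 on the log2 scale, but its other detected probe was at -0.05, and without background correction the difference was -0.40. IER5 fell by 0.39 ± 0.06 and EGR1, a zinc finger factor, by 0.31 ± 0.09, while IER3 rose by 0.23 ± 0.07. The calls of EGR1 and IER3 were lost in 7 and 5 of 16 alternatives, those of NR4A2 in 2 (the mean of its probes and omission of control replicate 2) and that of IER5 in none.

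Among the factors that act at the FOS and JUN promoters 7 of 17 tested fell and 0 rose at 60 min (9 at an unadjusted p under 0.05), with a median of -0.228, where 12.3% of all genes were called lower. ELK4, a partner of SRF at the serum response element, fell by 0.60 ± 0.13 (-0.34 without background correction) and MEF2A by 0.51 ± 0.11. The histone acetyltransferase genes CREBBP and EP300 fell by 0.40 ± 0.08 and 0.38 ± 0.12. The EP300 difference rested on single arrays, at -0.59 without 60 min replicate 1 and -0.16 without 60 min replicate 2. Omission of control replicate 2 ended all 4 of these calls, the MEF2A call was also lost without the variance trend, and the EP300 call in 5 other alternatives (highest adjusted p 0.304). CRTC3 at -0.36, CRTC2 at -0.32 and SRF at -0.23 complete the 7 and were named after their values were seen. The CRTC3 call held in all 16 alternatives, and those of CRTC2 and SRF were lost in 7 and 5. CRTC2 ran from -0.48 to -0.16 over the alternatives. At 30 min 0 of the 17 were called by limma, and 3 had an unadjusted p under 0.05.

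Of 25 tested MAP kinases and linked kinases 4 fell and 1 rose at 60 min (13 at an unadjusted p under 0.05), with a median of 0.00354. That share is close to the 22.9% called over all genes. MAPKAPK3, a kinase activated by p38, rose by 0.35 ± 0.05, a call held in all 16 alternatives. MAP2K4, which activates JNK, fell by 0.27 ± 0.06 and MAPK7 (ERK5) by 0.30 ± 0.08, with the other detected MAPK7 probe at -0.60. RPS6KA3, an ERK-activated kinase, fell by 0.23 ± 0.08, but its 3 detected probes were at -0.23, -0.82 and 0.16. MAP2K3, the fourth that fell, was at -0.19 (-0.059 as the mean of its probes) and was named after its values were seen. The calls of RPS6KA3 and MAP2K3 were lost in 10 and 9 of 16 alternatives, that of MAPK7 in 4 and that of MAP2K4 without control replicate 2.

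Among 13 tested partners and other related leucine zipper genes 1 fell and 0 rose (2 at an unadjusted p under 0.05; median -0.0742). This was MAFG, a small MAF protein gene, at -0.43 ± 0.11, a call lost without control replicate 1 and with no detection filter. Of 10 tested genes for turnover or coregulation of AP-1 proteins, the corepressor gene HDAC3 rose by 0.24 ± 0.06 and PPP2CA, a phosphatase catalytic subunit, fell by 0.23 ± 0.05. Neither list had a larger share called than the 22.9% over all genes. Both of these calls were lost with median scaling, without the variance trend and without control replicate 2, and that of PPP2CA also without 60 min replicate 2.

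Of 20 tested genes known as AP-1 targets 4 fell and 2 rose at 60 min, with a median of 0.0947, a share near the 22.9% called over all genes. MMP1, which was not called, is among the 20 and in the median. It was above background on the control arrays alone and passed the filter only through that group, so its test is not read. CCL2, a monocyte chemokine, fell by 0.96 ± 0.10 and HBEGF, a growth factor of the EGF family, by 0.43 ± 0.08, and both calls held in all 16 alternatives. HMOX1 (haem oxygenase 1) fell by 0.38 ± 0.10 (-0.24 without 60 min replicate 2) and MT2A, a metallothionein, rose by 0.40 ± 0.09, with calls lost in 4 and 3 alternatives. CCND1 at -0.21 and TIMP1 at 0.18 (0.11 without 60 min replicate 1) complete the 6 and were named after their values were seen, with calls lost in 5 and 8. HMOX1 was also the 1 target called at 30 min, at -0.66 ± 0.10 (adjusted p = 0.00974). Many of these genes answer to other factors too, and the lists were chosen with earlier results known, so their counts are descriptions.

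**Figure D4:**
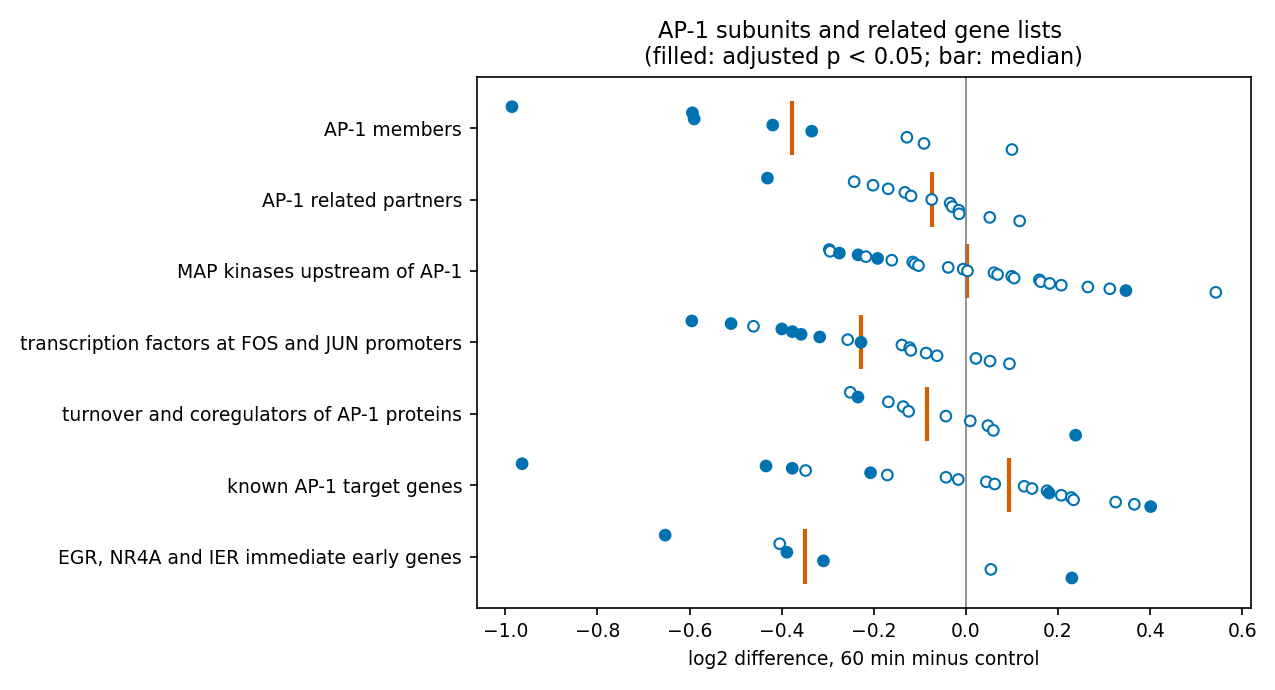
Log2 difference between 60 min and control for the AP-1 genes and 6 related lists, 1 point per tested gene, filled where the adjusted p was under 0.05, with a bar at each median. The medians of the AP-1 genes (-0.377) and of the other immediate early genes (-0.349) lie farthest below 0, and that of the AP-1 targets is at 0.0947.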

How the data were processed

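Total RNA of 6 samples was hybridised to Illumina bead arrays. The authors deposited probe intensities on a linear scale, not normalized, with a detection p-value beside each, exported with GenomeStudio 2011.1 per the submitters' processing notes. The authors' deposited series table is on the log2 scale and matched quantile-normalized log2 intensities, with background left in, to within 5e-07 (R 2.15.3 is also named in the submitters' processing notes).

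Intensities were background corrected and quantile normalized with neqc (negative controls inferred from detection p, offset 16) and taken to log2. Probes with a detection p under 0.05 on at least 2 arrays were kept (22377). Genes were named from the platform annotation, updated by gene identifier (30113 of 47323 probes had 1 symbol), and each was taken at its brightest detected probe (12547 genes). All 6 arrays were fitted together in limma 3.58.1 (R 4.3.3) with trended variances, 3 residual degrees of freedom and a median prior of 8.91. Steps were tested on simulated data. The number of arrays limits the precision: the median SE was 0.0919. All members were named, with up to 4 called genes of largest change per list. Members and lists were chosen with earlier results of these data known. Every value column belonged to a sample (0 others).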

Additional observations from a re-analysis of the deposited data

Results flagged for a closer look

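Levels at 30 and 60 min differed in 4 AP-1 genes by the test of 60 min against 30 min itself (limma, adjusted p under 0.05). In this comparison 22.7% of all genes were called. Without untreated samples at those times, salicylate and elapsed time cannot be told apart here. The log2 differences were -0.98 for FOS, -1.03 for FOSB, -0.31 for JUND and -0.28 for ATF3, and both 60 min arrays were below both 30 min arrays in each. Of all genes, 60.3% had no overlap between these groups, in either direction. FOS and ATF3 were above control on both arrays at 30 min and below it on both at 60 min. Neither passed the limma test at 30 min against control (adjusted p = 0.374 and 0.424), and ATF3 did not at 60 min (0.201). Groups did not overlap in 44.6% of all genes at 30 min against control and in 60.5% at 60 min. With 2 arrays a group, no test for outlying samples was made.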

How the results depend on the processing

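No direction of a called member reversed in any of the 16 alternatives, of which 2 (the authors' processed values and no background correction) are nearly identical. Over all genes the share called at 60 min against control was 22.9%, but 11.4% with no detection filter and 12.5% without the variance trend. Of the 5 members called there, 3 were called with no detection filter and 3 without the variance trend. With 1 sample omitted, fewer members were called at 60 min against control when a control or 60 min array was left out. Between 30 and 60 min the member count moved both ways. In each omission fewer of all genes were called too, in both 60 min comparisons. The loss of member calls is therefore not read as particular to the AP-1 genes. Member probes gave the same counts as members in each omission. Without the trend 2 member probes were called at 60 min against control and 2 against 30 min. The share of all probes in that fit is not given, so these probe counts are not read further. At 30 min against control the count was 0 throughout. FOSB and JUND kept both calls in every alternative. Signs of uncalled differences turned only when 1 array was omitted. With 1 sample omitted, FOSL2 ran from -0.105 to 0.0888 at 30 min (above 0 without control replicate 2 or 30 min replicate 2) and from -0.234 to 0.0522 at 60 min (above 0 without control replicate 2 or 60 min replicate 2). FOSL1 at 60 min ran from -0.00676 (without control replicate 2) to 0.207, and FOSB at 30 min from -0.0197 (without 30 min replicate 2) to 0.104. From 30 to 60 min FOSL2 ran from -0.226 to 0.0604 and JUN from -0.306 to 0.0289, both above 0 without 60 min replicate 2. The cause was not tested.

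The labels do not say whether samples of the same replicate number belong together. Same-numbered samples' deviations correlated at 0.0377, 0.0763 and -0.056 across genes for the 3 pairs of groups. With 2 arrays a group this cannot show whether they were handled together. With the replicate number as a block 5 members were called at 60 min against control, where 23% of all genes were. Of the member probes 3 of 8 were called there. The share of all probes in that fit is not given, so the probe count is not read further. Over all genes, 1654 were called at 60 min against control with median scaling (404 higher, 1250 lower; median -0.0596), 1573 without the trend, 1360 without control replicate 1 and 1239 without control replicate 2, against 2871 (1323 higher, 1548 lower). The depth of signal limits FOS, FOSB, FOSL1, FOSL2 and JUNB, whose probes lay close above the detection limit. Among the list genes called at 60 min, 5 of 25 kept their call in all 16 alternatives and 0 reversed.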
